A study of Homo sapiens with 30 samples.

Results

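Cholesterol synthesis is represented here by 8 genes, chosen by their symbols, with earlier results of these data known: HMGCS1, IDI1, FDFT1, SQLE, LSS and DHCR7, which encode enzymes of the pathway, and SREBF2 and INSIG1, which encode a transcription factor of the pathway and one of its regulators. They are 8 of the 63138 genes of the count table. All 8 passed the filter on low counts in every fit. RNA sequencing was done on hCMEC/D3, a line of immortalised endothelial cells from human brain microvessels that is used to model the blood-brain barrier in culture. There were 30 libraries in 10 groups of 3. In the 5 direct groups the cells were kept for 12 h in serum-free medium alone (Control) or with one added agent. The TNF group received 25 ng/mL of tumour necrosis factor alpha, a cytokine, and the IL1b group 10 ng/mL of the cytokine interleukin 1 beta. The C5a group received 50 ng/mL of C5a, a fragment of complement, and the Epinephrine group 200 nM of that hormone. In the 5 vesicle groups, cells of the same line received extracellular vesicles, membrane particles that cells release, enriched from the supernatants of cells under each of those conditions, and each group is named EV- with the name of the donor condition. All groups therefore share a single cell line, and the labels give 12 h for all 30 libraries, vesicle groups included. The labels do not say whether the 3 libraries of a group came from separate cultures, so the p-values measure the spread between these libraries, which may be technical.

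Cells build cholesterol from acetyl-CoA. HMGCS1 makes HMG-CoA, the precursor of mevalonate, IDI1 interconverts the isoprenoid building blocks made from mevalonate, FDFT1 joins farnesyl units into squalene, SQLE adds oxygen to squalene, LSS closes the ring to give lanosterol and DHCR7 carries out a last step to cholesterol. When membrane sterol is low, SREBF2 protein is carried by SCAP from the endoplasmic reticulum to the Golgi, cut by the proteases encoded by MBTPS1 and MBTPS2, and enters the nucleus, where it switches on these genes and its own. When sterol is high, INSIG1 holds SCAP and SREBF2 back. INSIG1 is itself a target of SREBF2, which makes its RNA one of the usual readouts of the pathway. Brain endothelial cells form the barrier that keeps plasma lipoproteins out of the brain, and sterol content is known to shape their membranes.

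Library totals ran from 16643961 to 22112326 counts. All 8 endothelial markers checked were detected, with the summed level of a library between 599 and 1040 CPM (the count scaled by library total and normalization factor), lowest in the EV-C5a and EV-Control libraries and highest in TNF. Of markers of other cells, the astrocyte gene AQP4 had no count in any library. The macrophage genes AIF1 and CX3CR1 and the epithelial genes EPCAM and CDH1 were near 0. The other macrophage genes checked had means of 0.871 CPM (PTPRC), 0.342 CPM (CSF1R) and 0.14 CPM (CD68). Other such markers were detected: the astrocyte gene GFAP (mean 3.61 CPM), the pericyte gene RGS5 (8.57 CPM) and the epithelial gene KRT8 (18.5 CPM). Among neuron genes SYT1 (2.01 CPM) and TUBB3 (1.73 CPM) were detected, and SNAP25 (0.348 CPM) and RBFOX3 (0.173 CPM) were lower. KRT18 (mean 263 CPM), listed as epithelial, and PDGFRB (mean 67.9 CPM), listed for pericytes, were present. They made up most of the summed levels of their lists, so those sums mostly follow 1 gene each. The summed pericyte markers ran from 43.6 to 45.4 CPM in TNF and from 77.5 to 84.6 CPM in Control, and the summed epithelial markers from 159.8 to 173 CPM in TNF and from 259 to 282 CPM in Control; their part in the TNF results was not tested. The normalization factors of the TNF libraries (0.842 to 0.861) lay apart from those of the other 27 (0.974 to 1.05), so TNF values depend on the scaling. With scaling by total counts alone, the median log2 fold change of all genes in TNF against Control moved from -0.01 to -0.29, and that of IL1b against TNF from 0.01 to 0.21.

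The 250 bases upstream of the starts given by RefSeq windows of GRCh38.p14 were searched for 3 short elements known from promoters of sterol genes. A gene can have more than 1 window, each with its own start. Windows of 6 of the 8 genes were searched, 10 windows in all. The remaining genes were not searched, so nothing is said here about their upstream bases. For each gene 1 stretch holding its CCAAT boxes, the element bound by the factor NF-Y that works beside SREBF2 at many of its targets, is shown because these genes are the ones whose RNA levels are followed below. Capitals mark CCAAT, written ATTGG where it lies on the other strand, and in SREBF2 also TCACNCCAC, a sterol regulatory element. Each is written 5′ to 3′ on the strand of its gene. The HMGCS1 stretch lies at chr5:43313498-43313577, minus strand, that of IDI1 at chr10:1049222-1049344, minus strand, that of LSS at chr21:46228910-46228934, minus strand, that of DHCR7 at chr11:71448427-71448497, minus strand, that of SREBF2 at chr22:41832962-41833013, plus strand, and that of INSIG1 at chr7:155297698-155297722, plus strand.
HMGCS1: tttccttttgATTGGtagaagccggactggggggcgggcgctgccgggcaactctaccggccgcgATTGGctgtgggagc
IDI1: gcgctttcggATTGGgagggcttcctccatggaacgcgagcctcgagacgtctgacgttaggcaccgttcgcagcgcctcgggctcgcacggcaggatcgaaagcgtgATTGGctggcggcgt
LSS: cggcgctctgATTGGttgcgtgggc
DHCR7: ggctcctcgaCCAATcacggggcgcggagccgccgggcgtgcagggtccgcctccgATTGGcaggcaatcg
SREBF2: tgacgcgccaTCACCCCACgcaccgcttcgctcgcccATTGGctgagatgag
INSIG1: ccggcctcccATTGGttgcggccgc
The stretch of SREBF2 overlaps an exon of the antisense gene SREBF2-AS1. The last 15 bases of the HMGCS1 stretch and 9 bases of the DHCR7 stretch lie in annotated exons of those genes, and the other 3 stretches in none. The whole DHCR7 stretch lies inside the annotated span of DHCR7 given below, so the start of its window is not the outer end of that gene. A further stretch with CCAAT, in another window of IDI1, lies wholly in an exon of IDI1 and is not shown. CCAAT occurred in 7 of the 10 windows and in at least 1 window of each of the 6 genes, against 32% of all 35116 windows of that length. GGGCGG, an Sp1 box, occurred in 9 of the 10 windows, against 42.6% of all windows. TCACNCCAC occurred in 1 of the 10, that of SREBF2, against 0.883% of all windows. Both strands were searched, a window counts once for each element whether or not matches overlap, and a match describes letters only, not binding.

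By their GENCODE 29 annotation on GRCh38, the genes lie at chr5:43289395-43313512 (HMGCS1), chr10:1039152-1049170 (IDI1), chr21:46188141-46228824 (LSS), chr11:71428193-71452868 (DHCR7), chr22:41833079-41907308 (SREBF2) and chr7:155297776-155310235 (INSIG1), and counts are over whole genes. Antisense genes overlap HMGCS1, IDI1, LSS, DHCR7 and SREBF2, and whether counting used the strand is not given in the sources used here, so reads of the overlapping parts cannot be told apart.

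Direct stimulation moved these genes in different directions. TNF raised 3 of the 8 (LSS, SQLE and HMGCS1) and lowered 1 (FDFT1), Epinephrine lowered 5 (LSS, HMGCS1, SREBF2, DHCR7 and INSIG1) and raised none, IL1b raised SQLE and lowered IDI1, and C5a lowered IDI1 and LSS (adjusted p under 0.05). Over all 15908 genes tested, TNF changed 52.7% (higher 27.5%, lower 25.3%), IL1b 46.6% (higher 24%, lower 22.6%), C5a 22.6% (higher 11.8%, lower 10.8%) and Epinephrine 25.2% (higher 13.5%, lower 11.8%). The 4 of 8 changed by TNF and the 2 of 8 changed by C5a are thus near the share of all genes, the 2 of 8 changed by IL1b are below it, and the 5 of 8 lowered by Epinephrine are above it. The median log2 fold change of the 8 was 0.05 in TNF, -0.01 in IL1b, -0.04 in C5a and -0.23 in Epinephrine, against medians of all genes between -0.01 and 0.01. With scaling by total counts, TNF lowered 5 of the 8 (FDFT1, SREBF2, IDI1, DHCR7 and INSIG1) and raised 2, the call of HMGCS1 was lost, and IL1b lowered 4 (IDI1, HMGCS1, FDFT1 and SREBF2) and raised SQLE. Both C5a calls were lost without C5a replicate 1 or 2, and with no filter on low counts. Epinephrine replicate 2 stood apart from replicates 1 and 3 of its group (chi-square per gene 12.9 and 10.1, against 5.07 between those), and without it the same 5 genes were lower (log2 -0.19 to -0.53) and FDFT1 also passed. The summed endothelial markers were lower than in Control (928 to 971 CPM), without overlap, in Epinephrine (751 to 822 CPM), IL1b (698 to 722 CPM) and C5a (704 to 732 CPM). The summed pericyte markers, mostly PDGFRB, were also lower without overlap in Epinephrine (70.1 to 74.6 CPM) and IL1b (56.8 to 58.8 CPM). The epithelial sum, mostly KRT18, was higher in C5a (349.6 to 362 CPM). The part of these marker sums in the results was not tested. These 4 comparisons share the same 3 Control libraries. Between the cytokines, IL1b was lower than TNF in 3 of the 8 (LSS, HMGCS1 and IDI1) and higher in none, against 41.4% of all genes (higher 19.9%, lower 21.4%), and the median of the 8 was -0.04. With scaling by total counts LSS and HMGCS1 stayed lower in IL1b than in TNF, and FDFT1, SQLE, DHCR7, SREBF2 and INSIG1 were higher (log2 0.14 to 0.28).

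Among the vesicle groups the genes moved mainly downward. EV-TNF and EV-IL1b each lowered HMGCS1, IDI1, INSIG1 and DHCR7 and raised FDFT1, and EV-Epinephrine lowered HMGCS1, IDI1, INSIG1, DHCR7 and SREBF2 and raised none. The share of all 15918 genes changed was 13.3% in EV-TNF (higher 5.9%, lower 7.42%), 14.6% in EV-IL1b (higher 6.49%, lower 8.14%) and 19.7% in EV-Epinephrine (higher 9.12%, lower 10.5%), so 5 of 8 is above the share of all genes in each. Medians of the 8 were -0.09, -0.08 and -0.15 (log2), against 0.00, 0.00 and 0.01 for all genes. In EV-TNF the count was 3, not 5, without EV-TNF replicate 3, in a fit of all 30 libraries or in a fit of those 2 groups. EV-C5a changed none of the 8, and 8 genes of 15918 in all (0.0503%). The total was 175 of 16350 genes without EV-Control replicate 3 and 73 of 35761 with no filter on low counts. In both settings none of the 8 was called. DESeq2 also called none of the 8 there. By edgeR, 2 of the 8, HMGCS1 and INSIG1, had an unadjusted p under 0.05, as did 1202 of all 15918 genes. The 4 vesicle comparisons share the same 3 EV-Control libraries. Of these, replicates 1 and 3 differed most, by 10.1 chi-square units per gene. Replicates 1 and 2 differed by 5.96 and replicates 2 and 3 by 4.87. The summed endothelial markers lay above EV-Control (599 to 642 CPM), without overlap, in EV-TNF (684 to 707 CPM), EV-IL1b (677 to 715 CPM) and EV-Epinephrine (669.9 to 699.8 CPM). In EV-TNF and EV-IL1b the pericyte sum, mostly PDGFRB, was lower without overlap (86.1 to 93.2 CPM over both, against 96.6 to 101 CPM). The epithelial sum, mostly KRT18, was higher there (299.8 to 321 CPM over both, against 279 to 293 CPM). The part of these markers in the results was not tested.

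The control groups themselves differed. In EV-Control, cells that received vesicles of unstimulated cells, 6 of the 8 genes were higher than in Control and none was lower, against 21.9% of all 16691 genes (higher 12.1%, lower 9.8%), with a median log2 fold change of 0.18 against -0.01 for all genes. The genes were IDI1, HMGCS1, INSIG1, FDFT1, SQLE and DHCR7, by 1.09-fold to 1.27-fold. Over the same pair of groups the summed endothelial markers ran from 928 to 971 CPM in Control and from 599 to 642 CPM in EV-Control, and the summed pericyte and smooth muscle markers from 77.5 to 84.6 CPM and from 96.6 to 101 CPM. Their part in this difference was not tested. The labels name no batch, so whether the direct and vesicle libraries were prepared together is not known.

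**Figure D1:**
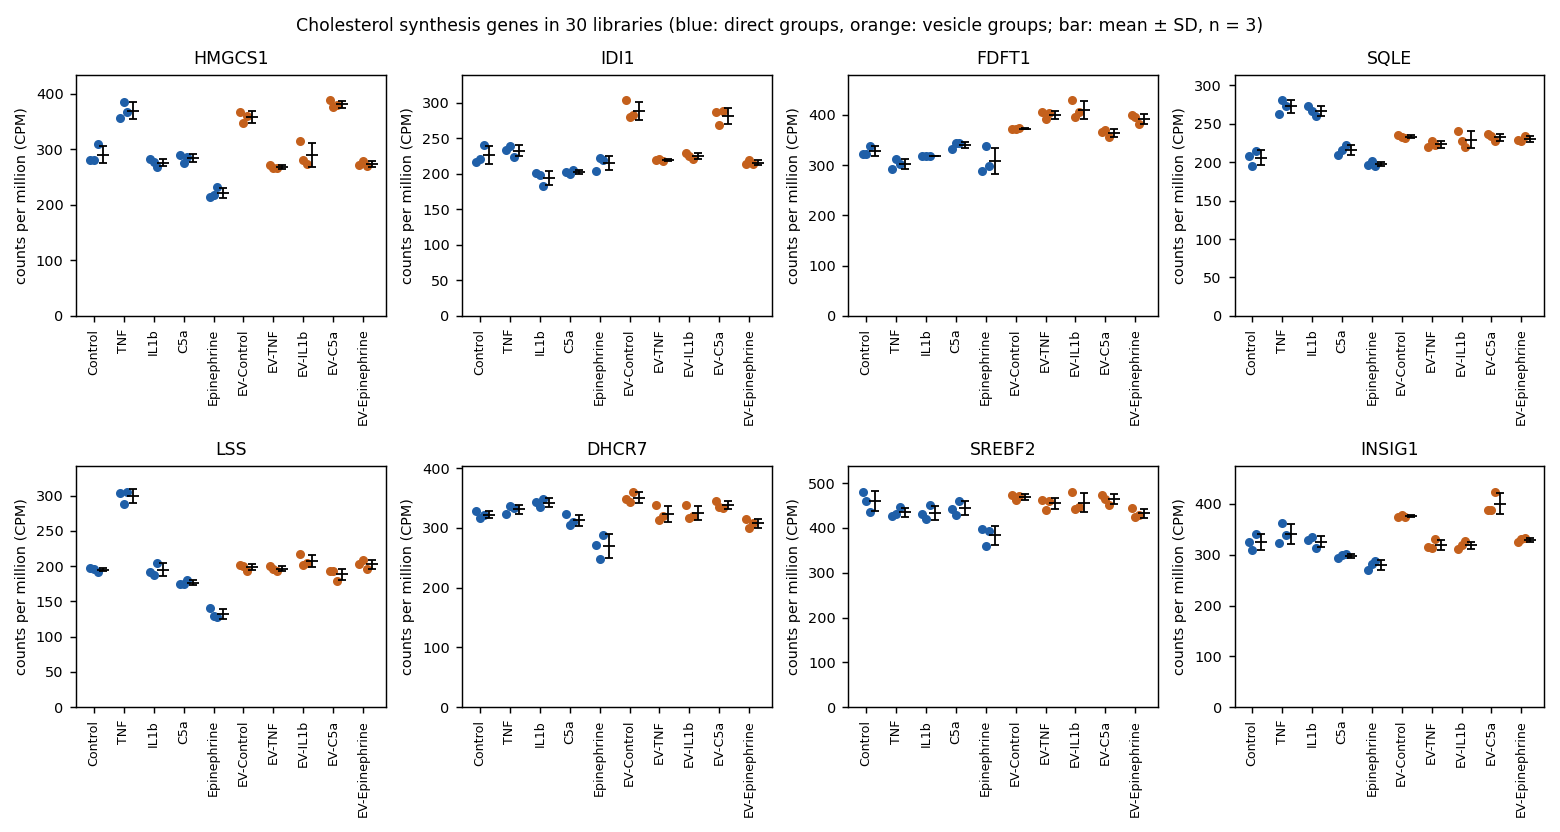
Level of each of the 8 genes (CPM, linear axis from 0) in every library of the 10 groups; points are libraries, the bar beside them is the mean ± SD of 3 libraries. LSS stands highest in TNF (299 CPM) and lowest in Epinephrine (132 CPM), while HMGCS1, IDI1 and INSIG1 are high in EV-Control and EV-C5a and lower in the other 3 vesicle groups.

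HMGCS1, the synthase at the start of the mevalonate arm, changed in opposite directions under TNF and under the vesicles of TNF-treated cells. Its level was 281, 281 and 309 CPM in the Control libraries and 357, 385 and 366 CPM in TNF, without overlap, a rise of 1.27-fold (log2 fold change 0.35, SE 0.05, adjusted p = 4.75e-08). With scaling by total counts the rise was not called (log2 0.07, adjusted p = 0.153). Epinephrine libraries lay lowest of all groups, at 214, 217 and 231 CPM, 23.4% below Control (log2 fold change -0.38, SE 0.05, adjusted p = 5.60e-08). IL1b (282, 277 and 268 CPM) and C5a (289, 275 and 285 CPM) overlapped Control and were not called, although IL1b was lower with scaling by total counts (log2 -0.15, adjusted p = 0.00596). IL1b stood below TNF (log2 -0.41, adjusted p = 2.11e-09).

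In the vesicle arm HMGCS1 started from a higher control. EV-Control libraries were at 367, 346 and 359 CPM, 1.23-fold above Control (log2 0.30, adjusted p = 9.02e-08). EV-TNF was at 271, 266 and 266 CPM, EV-IL1b at 314, 281 and 273 CPM and EV-Epinephrine at 271, 279 and 269 CPM, all below every EV-Control library. The falls were 25.3% (log2 -0.42, adjusted p = 2.77e-13), 19.3% (log2 -0.31, adjusted p = 3.74e-09) and 23.6% (log2 -0.39, adjusted p = 3.80e-12). These 3 groups came to mean levels of 268 to 289 CPM, near or below the 290.2 CPM of Control. EV-C5a, at 388, 375 and 379 CPM, lay above EV-Control without overlap but was not called (log2 0.09, adjusted p = 0.554).

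IDI1, the isomerase of the isoprenoid units, was lower in 3 of the vesicle groups and in 2 of the direct groups. In Control it was at 217, 220.4 and 241 CPM, and TNF (233, 239.6 and 224 CPM) and Epinephrine (205, 223 and 219.7 CPM) overlapped it and were not called, although TNF was lower with scaling by total counts (log2 -0.24, adjusted p = 4.08e-05). IL1b libraries, at 201, 198 and 183 CPM, lay below it by 13.9% (log2 fold change -0.22, SE 0.05, adjusted p = 3.40e-04) and below TNF (log2 -0.25, adjusted p = 5.07e-05), the latter not called with scaling by total counts (log2 -0.06, adjusted p = 0.3). C5a, at 202, 199 and 206 CPM, was lower by 9.94% (log2 -0.15, adjusted p = 0.0199). That C5a call rests on single libraries: the adjusted p was 0.174 without Control replicate 3, 0.0655 without C5a replicate 1 and 0.0883 without C5a replicate 2.

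The EV-Control libraries held IDI1 at 303, 279 and 282 CPM, 1.27-fold above Control (log2 fold change 0.35, SE 0.04, adjusted p = 2.22e-09), the largest rise of the 8 genes in that comparison. EV-TNF, at 219, 221 and 219 CPM, was lower by 23.9% (log2 -0.39, adjusted p = 6.50e-13). EV-IL1b, at 229, 225 and 221 CPM, was lower by 22.1% (log2 -0.36, adjusted p = 1.59e-11). EV-Epinephrine, at 214, 219.6 and 214 CPM, was lower by 25.1% (log2 -0.42, adjusted p = 9.67e-14). No library of these 3 groups reached the lowest EV-Control library, and their levels fell within or close to the range of Control. EV-C5a (286, 268 and 289 CPM) overlapped EV-Control (log2 -0.03, adjusted p = 0.894).

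FDFT1, squalene synthase (chr8:11795573-11839309, overlapped by a long non-coding RNA on the other strand), was called with TNF alone of the 4 stimuli. It was at 323, 322 and 339 CPM in Control and 292, 312 and 302 CPM in TNF, 7.94% lower (log2 fold change -0.12, SE 0.05, adjusted p = 0.033). Scaled by total counts, the fall was larger in TNF (log2 -0.40, adjusted p = 2.96e-09), and IL1b was lower too (log2 -0.12, adjusted p = 0.0358). With no filter on low counts the TNF call was lost (adjusted p = 0.0569). It was also lost without Control replicate 1 or 3 or TNF replicate 1 or 3 (adjusted p = 0.0565, 0.134, 0.157 and 0.0751). IL1b (319, 318 and 318 CPM), C5a (333, 344 and 344 CPM) and Epinephrine (288, 338 and 298 CPM) were not called. Epinephrine replicate 2 stood above the other two libraries of its group, and without it FDFT1 was lower in Epinephrine (log2 -0.15, adjusted p = 0.00263).

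In EV-TNF and EV-IL1b, where HMGCS1 and IDI1 fell, FDFT1 rose. EV-Control (372, 372 and 374 CPM) was 1.14-fold above Control (log2 0.18, adjusted p = 4.27e-04). EV-IL1b, at 429, 395 and 406 CPM, lay above it by 1.10-fold (log2 fold change 0.14, SE 0.03, adjusted p = 0.00181), the highest mean of the 10 groups. EV-TNF, at 405, 391 and 403 CPM, was higher by 1.07-fold (log2 0.10, adjusted p = 0.0291), a call lost without EV-Control replicate 1 or 2 or EV-TNF replicate 1 or 3 (adjusted p = 0.0622, 0.0747, 0.119 and 0.0778), with no filter on low counts (0.103), in a fit of all 30 libraries (0.0981) or in a fit of the 2 groups (0.0531). EV-Epinephrine (401, 396 and 381 CPM) and EV-C5a (366, 371 and 355 CPM) did not overlap EV-Control, the former above it and the latter below, but neither passed the test (log2 0.08, adjusted p = 0.089 and log2 -0.03, adjusted p = 0.89). EV-Epinephrine was higher with scaling by total counts (log2 0.11, adjusted p = 0.00978).

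SQLE, squalene epoxidase (chr8:124998497-125022283, with no overlapping gene in the annotation), was higher under both cytokines. Control libraries were at 208, 195 and 214 CPM, TNF at 263, 280.2 and 274 CPM and IL1b at 273, 267 and 259.6 CPM. Every cytokine library lay above every Control library, by 1.32-fold in TNF (log2 fold change 0.40, SE 0.04, adjusted p = 1.12e-09) and 1.30-fold in IL1b (log2 fold change 0.38, SE 0.04, adjusted p = 6.69e-09), and TNF and IL1b did not differ by the test (log2 -0.02, adjusted p = 0.728), although IL1b was higher with scaling by total counts (log2 0.17, adjusted p = 9.04e-04). With that scaling the rise came to log2 0.13 in TNF (adjusted p = 0.00973) and 0.30 in IL1b (adjusted p = 4.06e-07). C5a (209.7, 215 and 223 CPM) and Epinephrine (196, 201 and 196 CPM) were not called. EV-Control, at 235, 233 and 231 CPM, was 1.13-fold above Control (log2 0.18, adjusted p = 5.24e-04). None of the 4 vesicle groups differed from it by the test: means were 223 ± 4.48, 229 ± 10.8, 232 ± 4.59 and 229.9 ± 3.40 CPM (SD, n = 3) in the EV-TNF, the EV-IL1b, the EV-C5a and the EV-Epinephrine group, against 233 ± 2.01 CPM.

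LSS, lanosterol synthase, spanned the widest range of the 8 genes, 2.26-fold between the means of its highest and lowest groups, and the whole of that range lay in the direct arm. It was at 197, 197 and 192 CPM in Control. TNF libraries were at 304, 288 and 305 CPM, 1.53-fold higher (log2 fold change 0.62, SE 0.05, adjusted p = 9.59e-14), and remained higher with scaling by total counts (log2 0.34, adjusted p = 1.37e-07). Epinephrine libraries were at 140.3, 129 and 128 CPM, 31.8% lower (log2 fold change -0.55, SE 0.05, adjusted p = 3.81e-11). These were the only changes of a log2 size over 0.5 among the 8 genes in comparisons of a stimulus or vesicle with its control. IL1b (192, 187 and 205 CPM) overlapped Control and lay below TNF (log2 -0.61, adjusted p = 2.34e-13). C5a, at 174, 175 and 180.5 CPM, was lower by 9.03% (log2 -0.14, adjusted p = 0.0326), a call lost without Control replicate 1 or 2 or C5a replicate 1 or 2 (adjusted p = 0.121, 0.0985, 0.124 and 0.109) and with scaling by total counts (adjusted p = 0.051). In the vesicle arm LSS stayed between 179 and 218 CPM over all 15 libraries, and no vesicle comparison, EV-Control against Control included, was called (log2 -0.07 to 0.07).

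DHCR7, the reductase of the last part of the pathway, was lower under Epinephrine, directly and through vesicles. Control libraries were at 328, 316 and 322 CPM and Epinephrine libraries at 271, 249 and 289 CPM, 15.7% lower (log2 fold change -0.25, SE 0.05, adjusted p = 9.90e-05). EV-Control was at 349, 343 and 361 CPM and EV-Epinephrine at 316, 300.4 and 308 CPM, 12.1% lower (log2 fold change -0.19, SE 0.03, adjusted p = 4.21e-05). Neither pair of groups overlapped. TNF (322, 337 and 334 CPM), IL1b (343, 334 and 349 CPM) and C5a (323, 305 and 310.3 CPM) were not called, although TNF was lower with scaling by total counts (log2 -0.24, adjusted p = 2.70e-05). Smaller falls in EV-TNF (339, 313 and 320.1 CPM, log2 -0.12, adjusted p = 0.0146) and EV-IL1b (339, 317 and 319.6 CPM, log2 -0.11, adjusted p = 0.0191) passed the test. The former was lost without EV-Control replicate 3 or EV-TNF replicate 2 or 3 (adjusted p = 0.111, 0.151 and 0.0587), the latter without EV-Control replicate 3 or EV-IL1b replicate 2 or 3 (adjusted p = 0.13, 0.128 and 0.0943) or with scaling by total counts (0.0516). In a fit of all 30 libraries neither passed (0.0583 and 0.0715), nor in fits of the 2 groups compared (0.0649 and 0.0563). The rise of EV-Control over Control (log2 0.12, adjusted p = 0.0217) was lost without Control replicate 2 or EV-Control replicate 3 (adjusted p = 0.0863 and 0.107) and with scaling by total counts (0.104).

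SREBF2, the transcription factor of the pathway, varied least, 1.22-fold between its highest and lowest group means. In Control it was at 481, 461 and 436 CPM and in Epinephrine at 398, 359 and 394 CPM, 15.9% lower and without overlap (log2 fold change -0.25, SE 0.05, adjusted p = 9.82e-05). TNF (428, 431 and 446 CPM), IL1b (431, 419.7 and 451 CPM) and C5a (443, 429 and 459.7 CPM) were not called, although with scaling by total counts TNF (log2 -0.35, adjusted p = 3.17e-08) and IL1b (log2 -0.16, adjusted p = 0.00533) were lower. EV-Control, at 475, 463 and 472 CPM, overlapped Control. EV-Epinephrine, at 445, 424 and 430.1 CPM, was 7.82% below EV-Control (log2 -0.12, adjusted p = 0.00588), a call lost without EV-Epinephrine replicate 2 (adjusted p = 0.0518) and with scaling by total counts (log2 -0.08, adjusted p = 0.0569). EV-TNF, EV-IL1b and EV-C5a, at means of 455 ± 12.5, 457 ± 20.8 and 464 ± 11.0 CPM (SD, n = 3), were not called.

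INSIG1, whose protein retains SREBF2 when sterol is high, was lower under Epinephrine and in 3 of the vesicle groups, as HMGCS1 was. It was at 325, 309 and 341 CPM in Control and 270.2, 282 and 289 CPM in Epinephrine, 13.2% lower (log2 fold change -0.20, SE 0.05, adjusted p = 0.00104). TNF (322, 362 and 338 CPM) and IL1b (329, 335 and 314 CPM) overlapped Control, although TNF was lower with scaling by total counts (log2 -0.21, adjusted p = 1.19e-04). C5a libraries, at 293, 299 and 301 CPM, all lay below Control but missed the threshold (log2 -0.12, adjusted p = 0.0696), and passed it without Control replicate 2 (adjusted p = 0.0417). They also passed it with genes of a mean of at least 50 counts (0.0281), in a fit of all 30 libraries (0.0185) and in a fit of the 2 groups (0.00782). EV-Control, at 374, 378 and 375 CPM, was 1.16-fold above Control (log2 0.21, adjusted p = 7.03e-05). EV-TNF (316, 312 and 330.1 CPM), EV-IL1b (310.5, 318 and 326 CPM) and EV-Epinephrine (325, 331 and 333 CPM) all lay below EV-Control, by 15.1% (log2 -0.24, adjusted p = 4.24e-07), 15.4% (log2 -0.24, adjusted p = 2.79e-07) and 12.2% (log2 -0.19, adjusted p = 3.03e-05). EV-C5a, at 388, 388 and 424 CPM, lay above it and was not called (log2 0.09, adjusted p = 0.508).

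**Figure D2:**
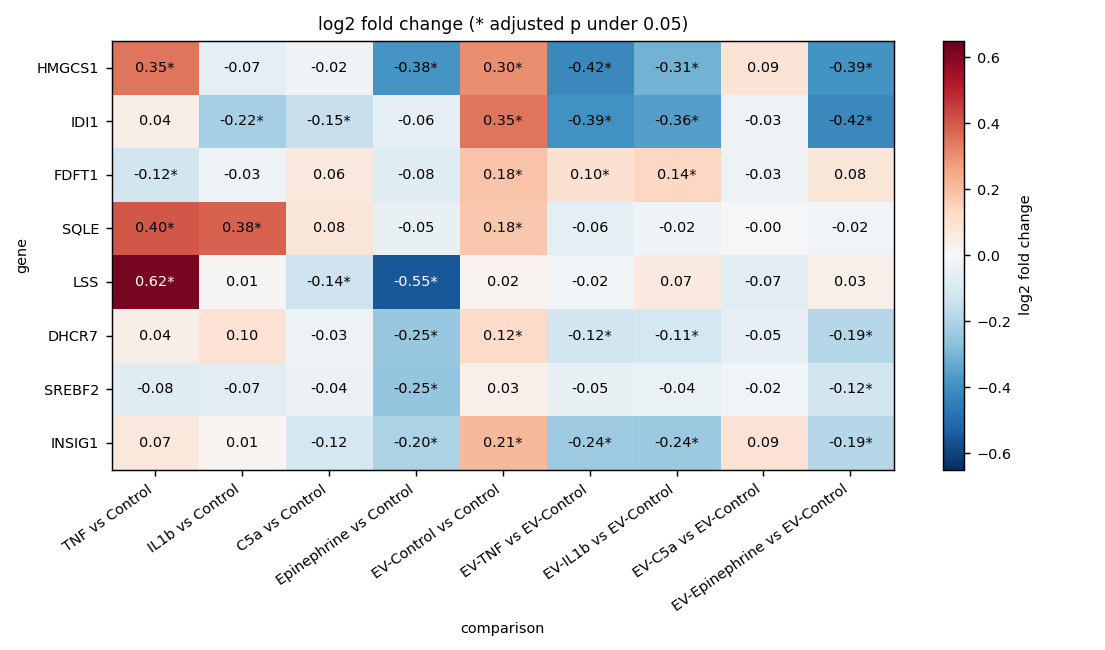
Log2 fold change of the 8 genes (rows) in 9 comparisons (columns) by edgeR; colour and number give the value and * an adjusted p under 0.05. Epinephrine lowered 5 genes directly and 5 through vesicles, with LSS lower only in the former column (-0.55 against 0.03) and IDI1 only in the latter (-0.06 against -0.42); with scaling by total counts the TNF column shifts down and IDI1, DHCR7 and INSIG1 become lower there.

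Whether the changes with vesicles and with the stimulus differed for a gene was tested as the vesicle response minus the direct response in a fit of all 30 libraries. Each response is taken against its own control, so a difference also holds the gap between EV-Control and Control. For HMGCS1, IDI1 and INSIG1 that gap was log2 0.30, 0.35 and 0.21, and its part was not tested separately. Their means were 369, 232 and 341 CPM in TNF and 268, 219.5 and 319 CPM in EV-TNF. For TNF, 7 of the 8 genes differed, 6 with a lower vesicle response (HMGCS1, IDI1, SQLE, LSS, DHCR7 and INSIG1) and FDFT1 with a higher one, against 44.7% of all genes (higher 21.3%, lower 23.4%). The largest difference was that of HMGCS1 (log2 fold change -0.77, SE 0.06, adjusted p = 4.08e-17), which rose with TNF and fell with EV-TNF. Next came LSS (log2 -0.63, adjusted p = 7.36e-14), SQLE (log2 -0.47, adjusted p = 2.65e-10) and IDI1 (log2 -0.43, adjusted p = 1.65e-08), each called in only one of the treatments. These were smaller with scaling by total counts, at -0.48 for HMGCS1, -0.34 for LSS, -0.18 for SQLE and -0.14 for IDI1, all still called, and that of FDFT1 rose from 0.22 to 0.51. With that scaling the DHCR7 difference turned to 0.13, that of INSIG1 was not called (log2 -0.01, adjusted p = 0.848) and that of SREBF2 was (log2 0.32, adjusted p = 2.15e-06). The DHCR7 call was lost without Control replicate 2, TNF replicate 2, EV-Control replicate 3 or EV-TNF replicate 2 or 3 (adjusted p up to 0.0878). For IL1b, 5 differed (HMGCS1, SQLE, DHCR7 and INSIG1 lower, FDFT1 higher), against 35.2% of all genes (higher 16.9%, lower 18.3%), most of all SQLE (log2 -0.40, adjusted p = 4.86e-08), and FDFT1 was lost without Control replicate 3 or EV-IL1b replicate 1 (adjusted p = 0.0521 and 0.0766). Scaled by total counts, the HMGCS1 and INSIG1 differences for IL1b came to -0.15 and -0.16, that of DHCR7 was not called (log2 -0.11, adjusted p = 0.127) and that of LSS was (log2 0.16, adjusted p = 0.0379). For C5a, INSIG1 alone of the 8 differed (log2 0.22, adjusted p = 0.00683), against 11.9% of all genes (higher 5.87%, lower 6.05%), and the call was lost without Control replicate 3 or EV-C5a replicate 3 (adjusted p = 0.0591 and 0.0748).

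Epinephrine and its vesicles lowered a set of genes that overlapped in part. HMGCS1, DHCR7, SREBF2 and INSIG1 were lower in both comparisons, and the difference between the responses was not called for any of them (log2 0.00, 0.07, 0.14 and 0.03; adjusted p = 0.973, 0.429, 0.0626 and 0.809), although that of SREBF2 was with scaling by total counts (log2 0.18, adjusted p = 0.0148) or with genes of a mean of at least 50 counts (adjusted p = 0.0464). LSS fell with Epinephrine and was not called with EV-Epinephrine, and its difference was 0.59 (SE 0.06, adjusted p = 7.66e-12). IDI1 fell with EV-Epinephrine and was not called with Epinephrine, and its difference was -0.35 (SE 0.06, adjusted p = 6.83e-06). The mean of IDI1 was 216 CPM in both Epinephrine and EV-Epinephrine, against 226 CPM in Control and 288 CPM in EV-Control. The 2 treated groups were thus at the same level, and the controls were not. FDFT1 differed by 0.17 (adjusted p = 0.026), a call lost without Control replicate 3, Epinephrine replicate 1 or 3, EV-Control replicate 1 or 2, or EV-Epinephrine replicate 1 or 2 (adjusted p up to 0.141) or with no filter on low counts (0.102). In all 3 of the 8 differed, 2 higher and 1 lower, against 24.2% of all genes (higher 11.7%, lower 12.5%).

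**Figure D3:**
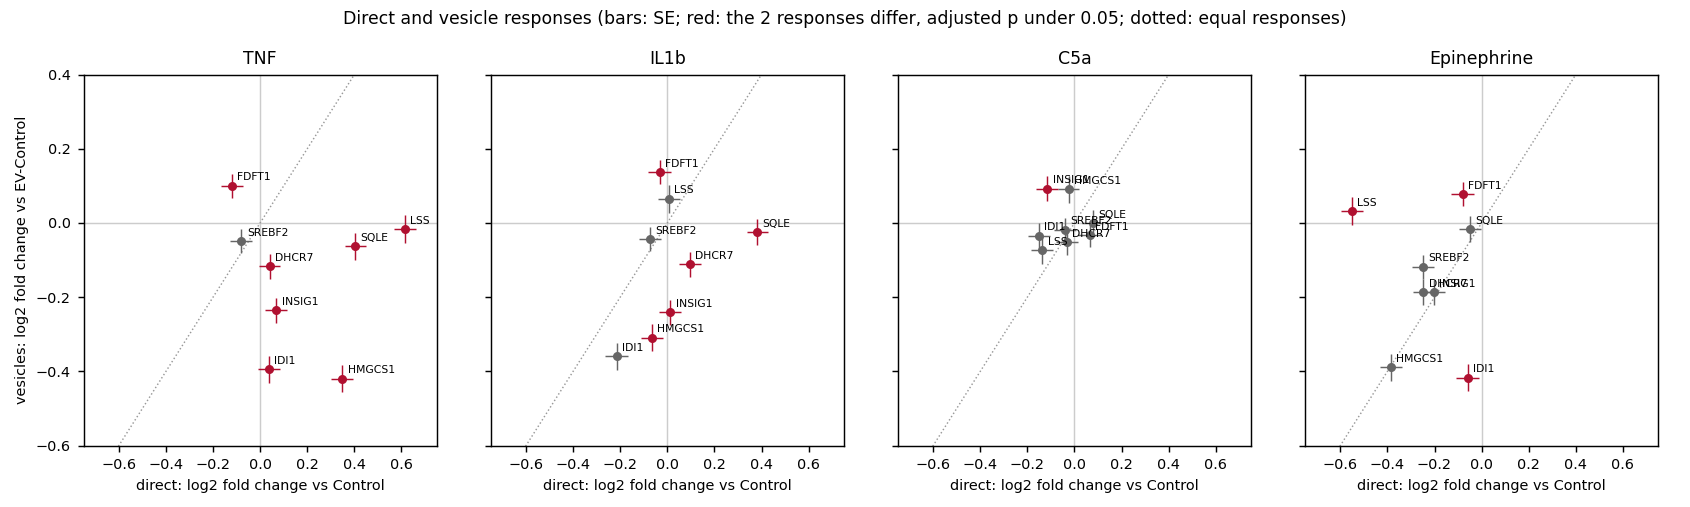
For each stimulus, the log2 fold change of the 8 genes with the stimulus itself (horizontal axis, against Control) and with vesicles of stimulated cells (vertical axis, against EV-Control); bars are SE, red marks genes whose 2 responses differed (adjusted p under 0.05), and the dotted line marks equal responses. In the TNF panel HMGCS1 lies at 0.35 and -0.42, and in the Epinephrine panel HMGCS1 lies on the dotted line while LSS and IDI1 lie off it on opposite sides.

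Over the 10 group means the genes did not move as one. The ratio of highest to lowest group mean was 2.26 for LSS, 1.72 for HMGCS1, 1.49 for IDI1, 1.43 for INSIG1, 1.38 for SQLE, 1.36 for FDFT1, 1.30 for DHCR7 and 1.22 for SREBF2. Epinephrine was the lowest group for HMGCS1, SQLE, LSS, DHCR7, SREBF2 and INSIG1, IL1b for IDI1 and TNF for FDFT1. The highest group was TNF for SQLE and LSS, EV-Control for IDI1, DHCR7 and SREBF2, EV-C5a for HMGCS1 and INSIG1 and EV-IL1b for FDFT1. When the 10 group means of a gene are put in order, 5 to 8 of the 9 neighbouring pairs were closer than the larger SD of the pair. Pearson's r between genes over the 10 group means of log2 CPM, a description of groups that share a cell line and a scaling, was highest for HMGCS1 and INSIG1 (0.881) and for DHCR7 and SREBF2 (0.846), 0.815 for IDI1 and INSIG1 and 0.765 for SQLE and LSS. It was near 0 for IDI1 and SQLE (0.02) and for FDFT1 with LSS (0.025), and -0.133 for FDFT1 with SQLE.

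Other genes of sterol and fatty acid metabolism were read from lists chosen, like the 8 genes, with earlier results of these data known, and not every gene of the pathways is on them. Under Epinephrine, which lowered 11.8% of all genes, 3 of 5 further genes of the mevalonate arm were lower and none higher, with MVD, which makes isopentenyl diphosphate (log2 -0.29, adjusted p = 6.74e-05), and ACAT2, the cytosolic thiolase (log2 -0.27, adjusted p = 4.09e-05), lowest. Of 8 genes of the sterol arm after squalene 3 were lower, led by TM7SF2, a sterol reductase, at 35.7 ± 2.39 CPM against 54.6 ± 2.89 CPM (SD, n = 3; log2 -0.60, adjusted p = 7.65e-08). The median log2 fold change of these lists was -0.16 and -0.11, against 0.01 for all genes. Of 5 genes that control SREBF2 and its relative SREBF1, SREBF1 (log2 -0.29, adjusted p = 5.15e-05), SCAP (log2 -0.15, adjusted p = 0.0213) and MBTPS1 were lower and MBTPS2 (log2 0.21, adjusted p = 0.0215) was higher. Of 8 genes of fatty acid synthesis, 4 were lower and none higher. TNF raised 11 and lowered 14 of the 37 list genes, against 27.5% and 25.3% of all genes, but with scaling by total counts it raised 5 (NPC1, STARD4, ABCA1, SOAT1 and CH25H) and lowered 28. FDPS, the farnesyl diphosphate synthase, was higher (log2 0.32, adjusted p = 7.16e-06) but not with scaling by total counts (log2 0.04). TM7SF2 was lower, at 17.4 ± 1.67 CPM (log2 -1.65, adjusted p = 3.70e-19). NPC1, which moves cholesterol out of lysosomes, rose from 152 ± 3.62 to 224 ± 8.35 CPM (log2 0.56, adjusted p = 2.22e-12; 0.28 with scaling by total counts). ABCA1, which exports cholesterol, was higher with TNF (19.2 ± 2.03 against 9.94 ± 1.02 CPM, log2 0.95, adjusted p = 4.70e-08). With C5a, which lowered 10.8% of all genes, 4 of 6 genes of sterol export, oxysterols and esters were lower, among them ABCG1, another exporter (log2 -1.06, adjusted p = 0.00421). IL1b lowered 3 of 5 genes of the mevalonate arm, against 22.6% of all genes, and TM7SF2 most of the sterol arm (log2 -0.87, adjusted p = 5.66e-12).

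Of the 13 genes of both synthesis lists, EV-Epinephrine lowered 8 and raised none, against 10.5% of all genes lowered, with MVD (log2 -0.23, adjusted p = 2.13e-05), CYP51A1, the lanosterol demethylase (log2 -0.40, adjusted p = 3.04e-04), and TM7SF2 (log2 -0.40, adjusted p = 1.59e-05) among the largest falls. EV-TNF lowered 5 of the 13 and EV-IL1b 4, against 7.42% and 8.14% of all genes, with none higher in either, and EV-C5a changed none. EV-IL1b lowered 1 gene of each synthesis list with scaling by total counts. CYP51A1 was at 30.8 ± 0.463 CPM in EV-Control, 24.7 ± 0.514 in EV-TNF, 25.9 ± 0.649 in EV-IL1b and 23.3 ± 2.05 in EV-Epinephrine (SD, n = 3). ABCA1 was at 8.59 ± 1.38 CPM in EV-Control and at 12.8 ± 0.537, 12.7 ± 1.47 and 18.5 ± 0.356 CPM in those 3 groups (log2 0.57, 0.56 and 1.11; adjusted p = 4.28e-04, 6.23e-04 and 9.08e-11). ABCG1, at a low level of 1.30 ± 0.133 CPM in EV-Control, was higher in the same 3 groups (log2 1.24, 1.25 and 1.63). MYLIP, a ubiquitin ligase induced by sterols, was also higher in all 3 (log2 0.35, 0.29 and 0.36). SREBF1, the relative of SREBF2 that drives fatty acid genes, was raised from 139 ± 3.16 CPM to 177 ± 6.98, 167 ± 1.92 and 215 ± 5.48 CPM (log2 0.63, adjusted p = 1.07e-19 in EV-Epinephrine), while SREBF2 fell in EV-Epinephrine. The 3 comparisons share EV-Control. In EV-Control against Control, where 12.1% of all genes were higher, 8 of 8 genes of fatty acid synthesis were higher (median log2 0.21), led by ELOVL6, a fatty acid elongase (log2 0.45, adjusted p = 9.99e-08), as were 3 of 5 of the mevalonate arm and 2 of 8 of the sterol arm, and ABCG1 was lower (log2 -1.17, adjusted p = 0.00153).

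**Figure D4:**
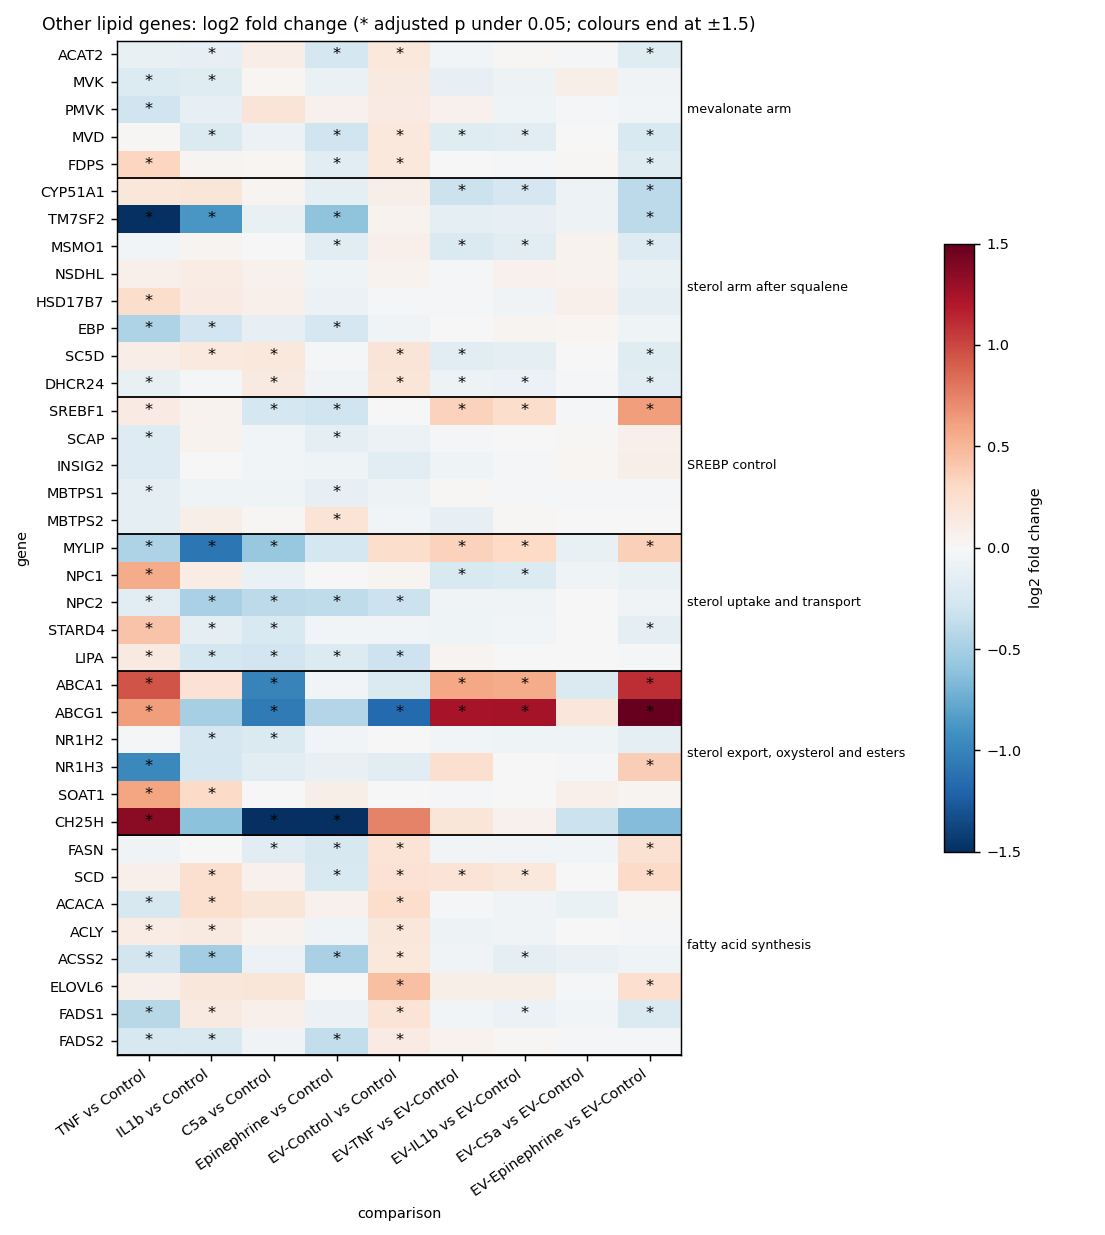
Log2 fold change of the 37 other lipid genes (rows, by list) in 9 comparisons (columns) by edgeR; colour gives the value, ending at ±1.5, and * an adjusted p under 0.05. The export genes ABCA1 and ABCG1 are higher in EV-TNF, EV-IL1b and EV-Epinephrine, where 4 to 8 of the 13 synthesis genes are lower. In the TNF column, scaling by total counts turns SREBF1, LIPA and ACLY from higher to lower. It gives 5 higher and 28 lower genes there in place of 11 and 14.

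The genes whose levels were most like the mean standardised profile of the 8 genes over the 10 groups, among 10541 genes with a symbol and at least 5 CPM, were KLC1 (Pearson's r 0.962), FOXO3 (0.95), BAHCC1 (0.941), ARHGAP10 (0.904), ARHGEF11 (0.895), MVD (0.889), GADD45B (0.885), GNAS (0.875), ACLY (0.866) and GPATCH8 (0.864). MVD, of the mevalonate arm, and ACLY, which supplies cytosolic acetyl-CoA, are on the pathway lists, and FDPS came at rank 13 (0.848). Within the 5 direct groups alone MVD ranked 224 and within the 5 vesicle groups 267, and KLC1 ranked 79 and 930.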

How the data were processed

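RNA of 30 libraries of hCMEC/D3 cells was measured, prepared per the labels' protocols with QIAshredder, RNeasy columns and a NEBNext Ultra kit from 1 ng of RNA. The authors deposited a table of raw counts per Ensembl gene, with no normalization. Per the submitters' processing notes, FastQC, STAR, DESeq2, R 4.4.1 and hg38 were used. The counting program, annotation and strand setting are not given in the sources used here.

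The table's 4 lines without a gene ID (at most 0.0016% of a library's counts), 2 genes without counts and 3 repeated lines were left out, leaving 63138 genes. Replicates of a group differed by 2.04 to 12.9 chi-square units per gene, so none was a duplicate. The analysis used edgeR 4.0.16 under R 4.3.3 (TMM factors, filterByExpr, robust quasi-likelihood test, two-sided, Benjamini-Hochberg over all genes, threshold 0.05). The 15 direct libraries (15908 genes), the 15 vesicle libraries (15918) and all 30 (16691, for EV-Control against Control and the differences between responses) were fitted separately. SE is the absolute log2 fold change divided by the square root of F. CPM use the factors of the fit of all 30. Tested on simulated data for TNF against Control (15440 genes), the test found 63 of 100 changes of log2 0.5 and 79 of 100 of log2 1, with 5 false calls.

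The 8 genes and all lists were chosen with earlier results of these data known, and the lists do not hold every gene of the pathways. List genes were named if called and among the 2 largest rises or falls of their list in a comparison, and the 10 genes most like the 8 by r over group means of log2 CPM (prior count 2); CH25H, MBTPS1 and the ranks of FDPS, and levels of list genes in further groups, were added after their values were seen. Alternatives were total-count scaling, relative log expression factors, no filter, a mean of at least 50 counts, DESeq2 1.42.0, a replicate block, a log2 change over 0.5, other sets of libraries in the fit and leaving out each library.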

Additional observations from a re-analysis of the deposited data

Results flagged for a closer look

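The values here are differences between 2 responses, the log2 fold change with vesicles of stimulated cells minus that with the stimulus, tested by edgeR's quasi-likelihood test. Each response has its own control, so the values also hold the gap between EV-Control and Control. That gap was largest for IDI1 of the 8 genes (log2 0.35). For TNF these were HMGCS1 at -0.77 (adjusted p = 4.08e-17), LSS at -0.63 (adjusted p = 7.36e-14), SQLE at -0.47 (adjusted p = 2.65e-10), IDI1 at -0.43 (adjusted p = 1.65e-08), INSIG1 at -0.30 (adjusted p = 1.35e-05), DHCR7 at -0.16 (adjusted p = 0.0241) and FDFT1 at 0.22 (adjusted p = 0.00112). With scaling by total counts the first 4 came to -0.48, -0.34, -0.18 and -0.14, INSIG1 to -0.01 (not called), DHCR7 to 0.13 and FDFT1 to 0.51. HMGCS1 rose with TNF, a call lost with that scaling, and fell with EV-TNF, and FDFT1 did the reverse. Both FDFT1 calls were lost when single libraries were left out. They were also lost with no filter on low counts (adjusted p = 0.0569 in TNF and 0.103 in EV-TNF). For IL1b they were SQLE at -0.40 (adjusted p = 4.86e-08), INSIG1 at -0.24 (adjusted p = 5.89e-04), HMGCS1 at -0.23 (adjusted p = 0.0014), DHCR7 at -0.20 (adjusted p = 0.00504) and FDFT1 at 0.18 (adjusted p = 0.0102). For C5a the value was INSIG1 at 0.22 (adjusted p = 0.00683). For Epinephrine they were LSS at 0.59 (adjusted p = 7.66e-12), IDI1 at -0.35 (adjusted p = 6.83e-06) and FDFT1 at 0.17 (adjusted p = 0.026).

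Some of these calls rest on single libraries. DHCR7 in TNF was lost without Control replicate 2, TNF replicate 2, EV-Control replicate 3 or EV-TNF replicate 2 or 3 (adjusted p up to 0.0878). FDFT1 in IL1b was lost without Control replicate 3 or EV-IL1b replicate 1 (adjusted p up to 0.0766), and INSIG1 in C5a without Control replicate 3 or EV-C5a replicate 3 (adjusted p up to 0.0748). FDFT1 in Epinephrine was lost without Control replicate 3, Epinephrine replicate 1 or 3, EV-Control replicate 1 or 2, or EV-Epinephrine replicate 1 or 2 (adjusted p up to 0.141). IDI1 in IL1b became called without Control replicate 3, IL1b replicate 3 or EV-Control replicate 2 (adjusted p from 0.0134 to 0.041), and SREBF2 in Epinephrine without Control replicate 3 or Epinephrine replicate 1 (adjusted p = 0.028 and 0.0326).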

How the results depend on the processing

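Of 1800 values of the 8 genes recomputed under other settings, 1662 kept their side of the threshold, 40 of them with a change of sign where neither value was past it, 107 were no longer past it, 25 came past it and 6 reversed. DESeq2 and relative log expression factors changed no call of the 112 each gave. Same-numbered libraries did not deviate together (r from -0.039 to 0.026), so the numbers were not taken to pair libraries; with a replicate block no call changed, and TNF against Control kept 4 genes called. All 6 reversals came with scaling by total counts: IDI1 -0.24, DHCR7 -0.24 and INSIG1 -0.21 in TNF against Control, SQLE 0.17 and INSIG1 0.14 in IL1b against TNF, and DHCR7 0.13 in the TNF difference between responses. That scaling called 7 of the 8 genes in TNF, 5 in IL1b, 1 in C5a and 7 in IL1b against TNF, and moved the share of higher among all called genes in TNF from 52.09% to 22.68%, and in IL1b from 51.54% to 38.63%. Requiring a log2 change over 0.5 left 1 gene in TNF, 0 in IL1b, 0 in C5a, 1 in Epinephrine, 1 in IL1b against TNF, 0 in EV-TNF, EV-IL1b, EV-Epinephrine and EV-Control against Control, and 2, 0, 0 and 1 in the TNF, IL1b, C5a and Epinephrine differences. No filter on low counts left 0 genes in C5a. C5a had 3 with a mean of at least 50 counts, in a fit of all 30 libraries and in a fit of its 2 groups. EV-TNF had 3 in a fit of all 30 libraries and 3 in a fit of its 2 groups. Leaving out each library gave 0 to 2 genes in C5a (0 without C5a replicate 1 or 2, 1 without Control replicate 1 or 3), 3 to 4 in EV-TNF (3 without EV-TNF replicate 3) and 0 to 1 in the C5a difference (0 without Control replicate 3 or EV-C5a replicate 3). Where no construction of the setting shows the cause, the cause was not tested. Every library held at least 2275 counts of each of the 8 genes.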

Other observations

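In the endothelial line, the genes on the lists for sterol uptake and transport moved with C5a, IL1b and the vesicle control in ways not described above. C5a lowered 4 of the 5 (median log2 -0.29), against 10.8% of all genes, among them MYLIP (log2 -0.56, adjusted p = 4.41e-04) and NPC2, which hands cholesterol to NPC1 in lysosomes (log2 -0.40, adjusted p = 2.97e-06). IL1b also lowered 4 of the 5, against 22.6% of all genes, again with MYLIP (log2 -1.08, adjusted p = 4.12e-09) and NPC2 (log2 -0.49, adjusted p = 1.23e-08) lowest. Epinephrine lowered NPC2 (log2 -0.39, adjusted p = 4.28e-06) and LIPA, the lysosomal acid lipase (log2 -0.20, adjusted p = 0.00188), and both were lower in EV-Control than in Control (log2 -0.32, adjusted p = 2.07e-06, and log2 -0.31, adjusted p = 4.01e-08). These comparisons share the Control libraries. CH25H, which makes an oxysterol, had few counts: its level was 0.921 ± 0.0307 CPM in Control, 2.34 ± 1.23 in TNF, 0.153 ± 0.136 in C5a and 0.216 ± 0.0914 in Epinephrine (SD, n = 3).

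Among genes of fatty acid synthesis, ACSS2, which activates acetate, was lower with IL1b (log2 -0.52, adjusted p = 1.53e-10) and Epinephrine (log2 -0.49, adjusted p = 3.16e-09), and SCD, the stearoyl-CoA desaturase, was higher with EV-TNF (log2 0.20, adjusted p = 2.36e-08), EV-IL1b (log2 0.15, adjusted p = 1.33e-05) and EV-Epinephrine (log2 0.29, adjusted p = 4.53e-13). In the difference between responses to EV-Epinephrine and Epinephrine, 13 of the 37 list genes were called and all 13 were higher. Of all genes 24.2% were called (higher 11.7%, lower 12.5%). Among the 13 were SREBF1 (log2 0.94, adjusted p = 2.24e-18), ABCA1 (log2 1.16, adjusted p = 5.47e-07) and SCD (log2 0.53, adjusted p = 5.99e-13).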
